A study of Mus musculus with 8 samples.

Results

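Forkhead transcription factors of lung stroma and vessels were followed in sorted mouse lung cells labelled as fibroblasts. The set holds 10 genes, Foxf1, Foxf2, Foxl1, Foxc1, Foxc2, Foxo1, Foxo3, Foxp1, Foxp2 and Foxd1, picked by symbol from the 25509 genes of the deposited table. All 10 were present and all 10 passed the low-count filter. RNA was measured in 8 libraries from 4 C57Bl6/J mice of wild-type genotype, numbered 2, 7, 8 and 10, each of which gave 1 CD249+ and 1 CD249- library. Both fractions were sorted at the same time from the same digested lung, as cells without CD45, CD326 and CD31, the surface marks of leukocytes, epithelium and endothelium. CD249 is the surface enzyme glutamyl aminopeptidase, encoded by Enpep. The age and sex of the mice are not given in the labels. The comparison asks how the CD249+ fraction differs from the CD249- fraction of the same lung. The name fibroblasts comes from the labels.

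Forkhead proteins share a winged-helix DNA-binding domain, and their subfamilies are named by letter. In the developing lung, epithelial hedgehog ligand keeps Foxf1 and its paralogs active in the mesenchyme around the airways, and Foxf1 is also a factor of lung capillary endothelium. Foxc proteins act in vessel and lymphatic development, Foxo proteins are held in the cytoplasm by insulin and Akt signalling, and Foxp proteins repress transcription as dimers.

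Library totals ran from 23011383 to 31906414 counts. Enpep had 239.6, 221, 175 and 329 CPM (a count relative to the library total, scaled by TMM) in the CD249+ libraries of mice 2, 7, 8 and 10, against 7.54, 5.99, 5.13 and 17.3 CPM in CD249- cells. Endothelial transcripts were present in both fractions. The summed level of 24 endothelial genes was 6898 to 13307 CPM in CD249+ libraries and 22333 to 29386 CPM in CD249- libraries, no endothelial gene was at 0 in either fraction, and all 24 were called lower in CD249+ cells. Pecam1, the gene of the gate antigen CD31, averaged 611 ± 239 CPM in CD249+ and 1667 ± 248 CPM in CD249- cells (SD, n = 4 each, log2 fold change -1.51, SE 0.12, edgeR adjusted p = 2.79e-05). The summed level of 22 alveolar fibroblast genes was 11396 to 19366 CPM in CD249+ libraries and 2528 to 3110 CPM in CD249- libraries, and 19 of the 22 were called higher. In every CD249- library this sum lay below the endothelial sum, and the share of each cell type was not measured. Over all genes tested 19.3% were called higher and 17.1% lower in CD249+ cells. In such bulk samples, fewer cells of a type and less RNA per cell cannot be told apart.

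The forkhead genes sit partly in clusters, and the clusters frame the results. On mouse chromosome 8 (GRCm38) Foxf1 (121084386 to 121088144), Foxc2 (121116171 to 121118895) and Foxl1 (121127940 to 121130644) follow one another on the plus strand. The long noncoding RNA gene Fendrr starts 1275 bases upstream of Foxf1 and runs the other way. On chromosome 13 Foxf2 (31625816 to 31631403, plus strand) has a divergent partner too, the long noncoding RNA gene 1700018A04Rik, whose annotated start is 23 bases away, and Foxc1 (31806633 to 31812476) follows downstream. The windows upstream of Foxf2 and Fendrr are shown because each lies at the start of a gene of a divergent pair whose members moved in the same direction. The Fendrr window lies between Fendrr and Foxf1, while the Foxf2 window lies inside 1700018A04Rik except for its last 23 bases. They are the 250 bases before the RefSeq start (GRCm38.p6), read 5′ to 3′ on the strand of the named gene, chr13:31625566-31625815 on the plus strand for Foxf2 and chr8:121083111-121083360 on the minus strand for Fendrr. Capitals mark the 23 bases between the 2 annotated starts in the Foxf2 window and the forkhead core GTAAACA in the Fendrr window.
Foxf2: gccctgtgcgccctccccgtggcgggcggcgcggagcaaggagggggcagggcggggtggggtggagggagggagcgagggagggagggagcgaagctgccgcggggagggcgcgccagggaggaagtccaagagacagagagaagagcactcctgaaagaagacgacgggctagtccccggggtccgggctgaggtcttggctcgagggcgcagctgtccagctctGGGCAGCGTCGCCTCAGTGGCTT
Fendrr: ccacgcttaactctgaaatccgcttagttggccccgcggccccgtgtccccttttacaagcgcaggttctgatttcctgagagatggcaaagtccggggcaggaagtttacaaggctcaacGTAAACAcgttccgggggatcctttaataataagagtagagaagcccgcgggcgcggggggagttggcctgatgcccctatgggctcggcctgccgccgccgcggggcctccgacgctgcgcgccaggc
RefSeq windows of 250 bases before to 50 after a start were matched for 6 of the 10 genes, Foxf2, Foxc1, Foxd1, Foxo1, Foxo3 and Foxp1. The forkhead core GTAAACA, searched on both strands, was found in 3.65% of 32851 such windows and in none of those of the 6 genes. The Gli core ACCACCC was found in 4.61% of all windows and in none of theirs, and the Fendrr window held 1 forkhead core and no Gli core. The windows of Foxf2, Foxc1, Foxd1, Foxo1 and Foxo3 held 27, 32, 15, 31 and 35 CG dinucleotides, the 3 windows of Foxp1 held 5, 13 and 44, and that of Fendrr held 31, against a median of 7 over all windows. A match or its absence describes these letters only.

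Of the 10 forkhead genes, 9 differed between the fractions (edgeR quasi-likelihood test with mouse as a block, adjusted p under 0.05 over all genes), in a comparison that called 36.5% of 14524 genes. Foxf2, Foxl1, Foxd1, Foxo3 and Foxp2 rose in CD249+ cells (19.3% of all genes did), and Foxf1, Foxp1, Foxo1 and Foxc1 fell (17.1% of all genes did). Foxc2 did not pass the test. The 9 differences had the same direction in all 4 mice. The libraries of the fractions did not overlap for 6 of the 10 genes, against 33.6% of all genes. Of the 6, 3 were higher (17.8% of all genes) and 3 lower (15.8%) in CD249+ cells. The median log2 fold change of the 10 genes was 0.47, against -0.02 over all genes tested. In the pairs Foxf1 and Foxf2, Foxo1 and Foxo3, and Foxp1 and Foxp2, 1 member was more abundant per kilobase of exon in CD249- cells. That member fell in CD249+ cells and the other rose. Foxc1 fell and Foxc2 did not pass. Their levels per kilobase overlapped in CD249- cells, where Foxc2 was the higher in mice 2, 8 and 10.

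**Figure D1:**
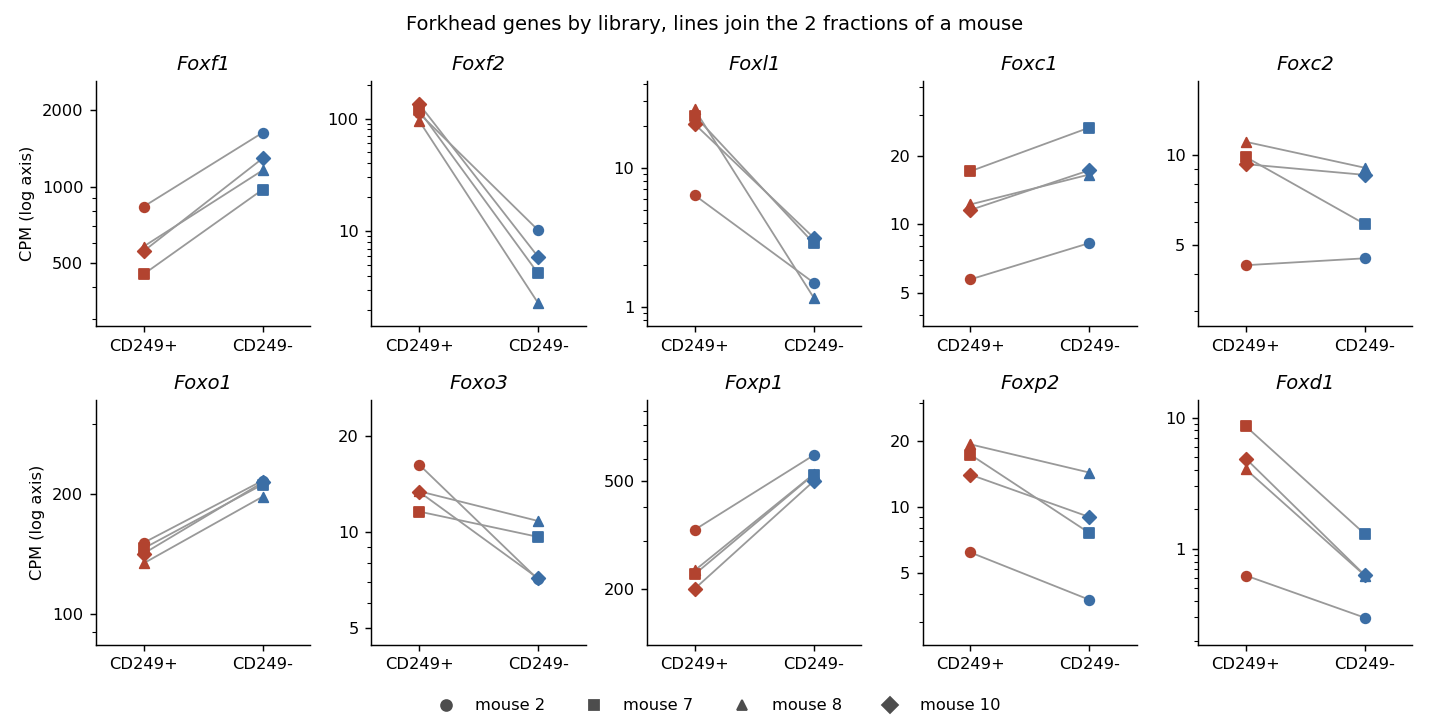
CPM of each of the 10 forkhead genes (log axis, range differs by panel) in CD249+ (left, red) and CD249- (right, blue) libraries, with 1 marker shape per mouse and lines joining the 2 fractions of a mouse. Foxf2 stood at 95.5 to 135 CPM in CD249+ libraries and 2.29 to 10.2 CPM in CD249- libraries, Foxf1 moved the other way in every mouse, and mouse 2 lay lowest in both fractions for Foxc1, Foxc2, Foxp2 and Foxd1.

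Foxf1 had the highest level of the 10 forkhead genes in both fractions. It encodes the factor that mouse lung needs for its mesenchyme and capillaries. Foxf1 (ENSMUSG00000042812.5) had 833, 450.3, 579 and 555 CPM in the CD249+ libraries of mice 2, 7, 8 and 10, against 1631, 972, 1158 and 1291 CPM in their CD249- libraries. Every CD249+ library lay below every CD249- library, and mouse 2 was highest in both fractions. The means of 604 ± 162 CPM in CD249+ and 1263 ± 278 CPM in CD249- cells (SD, n = 4 each) made Foxf1 2.09-fold lower in CD249+ cells (log2 fold change -1.07, SE 0.07, adjusted p = 1.58e-05).

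Foxf2, the paralog of Foxf1 in gut, palate and brain pericyte development in mice, showed the opposite difference and the largest of the 10. Foxf2 (ENSMUSG00000038402.2) had 112, 118, 95.5 and 135 CPM in the CD249+ libraries of mice 2, 7, 8 and 10, against 10.2, 4.20, 2.29 and 5.91 CPM in their CD249- libraries. The fractions were far apart in all 4 mice. At 115 ± 16.2 CPM in CD249+ and 5.65 ± 3.37 CPM in CD249- cells (SD, n = 4 each), Foxf2 was 20.3-fold higher in CD249+ cells (log2 fold change 4.47, SE 0.28, adjusted p = 1.17e-05). Summed levels of 17 smooth muscle and myofibroblast genes, all of them called higher (19.3% of all genes were), were 2776 to 4313 CPM in CD249+ and 468 to 1159 CPM in CD249- libraries. Of 19 pericyte genes 16 were called higher and 1 lower, and of 22 alveolar fibroblast genes 19 were called higher and 1 lower (17.1% of all genes were lower). The part of these cell types in the Foxf2 value was not tested.

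Per kilobase of exon Foxf1 remained above Foxf2 in both fractions, 5.15-fold in CD249+ and 219-fold in CD249- cells. The level of Foxf1 was 250.3 ± 67.2 CPM per kb in CD249+ and 523 ± 115 CPM per kb in CD249- cells, and that of Foxf2 was 48.6 ± 6.84 CPM per kb in CD249+ and 2.39 ± 1.43 CPM per kb in CD249- cells (SD, n = 4 each). Foxf2 made up 12.0%, 21.1%, 14.4% and 19.8% of the summed Foxf level per kb in the CD249+ libraries of mice 2, 7, 8 and 10, and 0.635%, 0.440%, 0.202% and 0.465% in CD249- cells. The summed level of both genes was lower in CD249+ cells, at 299 ± 66.0 CPM per kb, than in CD249- cells, at 525 ± 116 CPM per kb (SD, n = 4 each).

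Foxf1 was also compared with the endothelial transcripts of the same library, since lung endothelium is known to express it. Foxf1 equalled 6.26%, 6.53%, 7.26% and 7.99% of the summed CPM of the 24 endothelial genes in the CD249+ libraries of mice 2, 7, 8 and 10, and 5.55%, 4.35%, 5.16% and 5.68% in CD249- cells. Its level relative to these genes was therefore higher in CD249+ cells in 4 of 4 mice, by 0.44 on the log2 scale (two-sided exact permutation over the 8 libraries, p = 0.0286, the smallest it can give, and p = 0.125 with sign flips within mouse, also the smallest). With Pecam1, Cdh5 and Kdr alone the difference was 0.36 (exact permutation p = 0.0571). The part of endothelial RNA in the fall of Foxf1 was not tested.

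**Figure D2:**
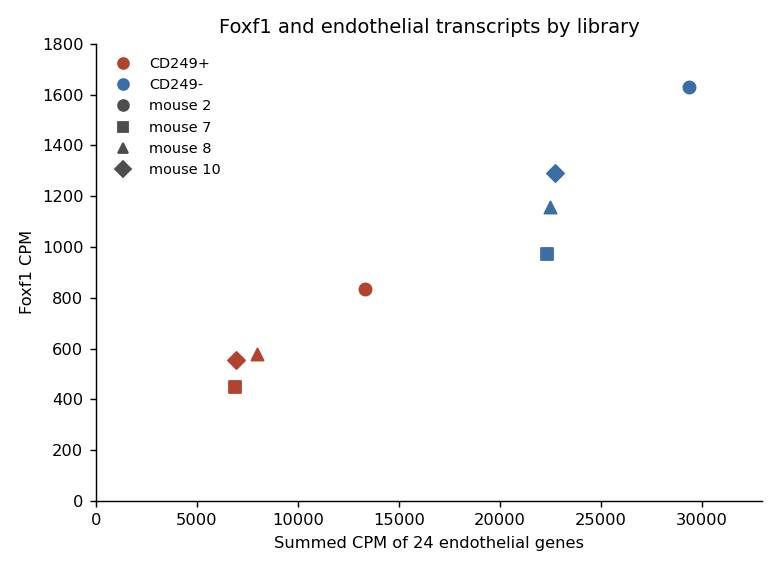
Foxf1 CPM against the summed CPM of 24 endothelial genes in each of the 8 libraries, CD249+ in red and CD249- in blue, with 1 marker shape per mouse. CD249+ libraries lie at 6898 to 13307 CPM of endothelial genes and 450.3 to 833 CPM of Foxf1, and the libraries of mouse 2 are highest on both axes within their fraction.

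The noncoding partners moved in the same direction as their forkhead neighbours, in a comparison that called 36.5% of all genes. Fendrr, a long noncoding RNA needed for lung and heart development in mice, had 147, 111, 149 and 80.9 CPM in the CD249+ libraries of mice 2, 7, 8 and 10, against 352, 372, 419 and 245 CPM in their CD249- libraries. It fell by 1.52 on the log2 scale (SE 0.09, adjusted p = 9.20e-06), with no overlap between the fractions. The part of endothelial RNA in the fall of Fendrr was not tested. The gene 1700018A04Rik had 109, 140, 74 and 129 counts in CD249+ cells and 0, 1, 1 and 4 counts in CD249- cells of mice 2, 7, 8 and 10 (adjusted p = 0.000549), and its fold is not given because it rests on so few counts. The library kit does not mark strand, and reads of transcripts on opposite strands can be told apart here only where their exons lie apart, as those of both divergent pairs do.

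Foxl1, the third gene of the chromosome 8 cluster and a marker of subepithelial mesenchyme in mouse gut, rose in CD249+ cells. Foxl1 (ENSMUSG00000097084.1) had 6.36, 23.7, 26.3 and 20.6 CPM in the CD249+ libraries of mice 2, 7, 8 and 10, against 1.49, 2.87, 1.17 and 3.15 CPM in their CD249- libraries. Mouse 2 gave the lowest CD249+ value, which still lay above all CD249- values. The difference was 8.86-fold between the means of 19.2 ± 8.89 CPM in CD249+ and 2.17 ± 0.985 CPM in CD249- cells (SD, n = 4 each, log2 fold change 3.05, SE 0.37, adjusted p = 0.000332).

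Within 200 kb of Foxf1 the genes tested therefore differed in direction. Fendrr and Foxf1 fell, Foxl1 rose, and the 2 genes between them did not pass, Mthfsd at a log2 fold change of -0.03 (SE 0.10, adjusted p = 0.866) and Foxc2 at 0.27 (SE 0.24, adjusted p = 0.410). Around Foxf2, 1700018A04Rik rose, and so did Foxq1, the forkhead gene upstream of it, at 14.7 ± 0.932 CPM in CD249+ and 1.75 ± 1.56 CPM in CD249- cells (SD, n = 4 each, log2 fold change 3.45, SE 0.53, adjusted p = 0.00121). A530084C06Rik overlaps Foxq1 on the other strand, both have counts that are not whole, and the split of reads between them is uncertain. A530084C06Rik had a log2 fold change of 3.55 (SE 1.01, adjusted p = 0.0259). Foxc1, on the other side of Foxf2 at 180817 bases from start to start, fell.

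**Figure D3:**
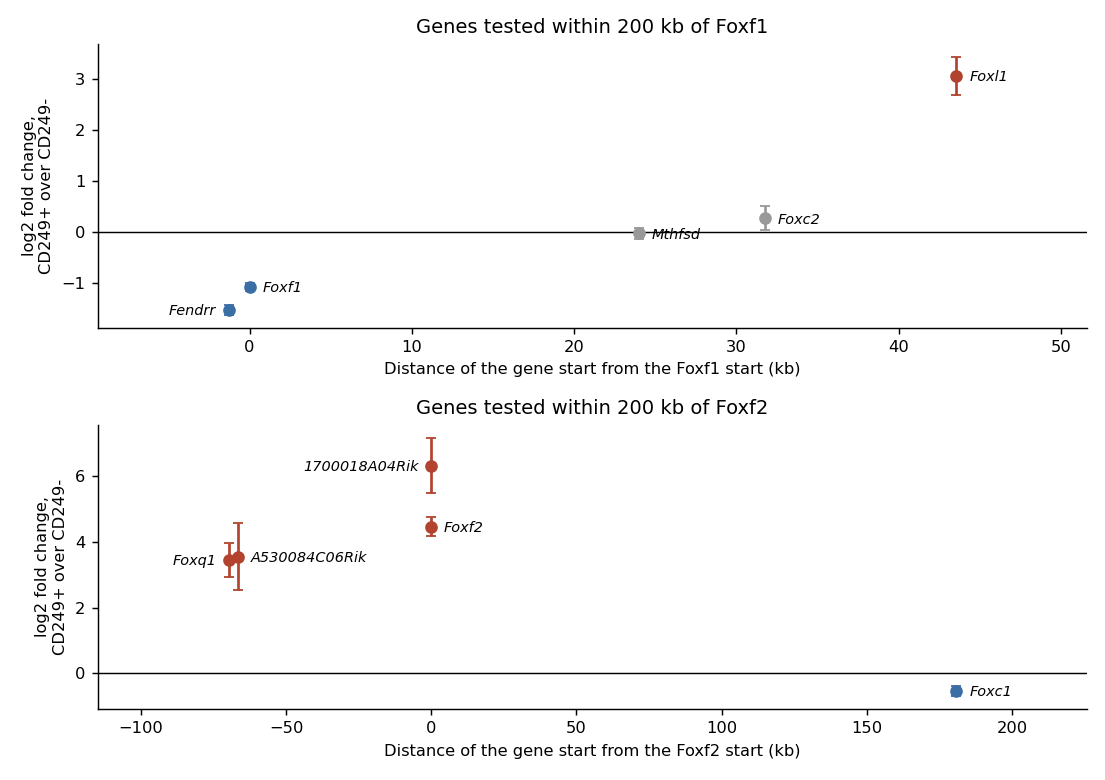
Log2 fold change of CD249+ over CD249- for the genes tested within 200 kb of Foxf1 (upper panel) and Foxf2 (lower panel). Points are placed by the distance of their start from that of Foxf1 or Foxf2 in kb. Bars are standard errors derived from the edgeR test. Red is higher, blue lower and grey not past an adjusted p of 0.05. Both clusters hold genes of both directions, and the point of 1700018A04Rik rests on 0 to 4 counts per CD249- library.

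Foxc1 and Foxc2, factors of vessel and lymphatic development, were expressed at low levels. Foxc1 (ENSMUSG00000050295.3) had 5.73, 17.1, 12.2 and 11.5 CPM in the CD249+ libraries of mice 2, 7, 8 and 10, against 8.27, 26.5, 16.5 and 17.2 CPM in their CD249- libraries. The fractions overlapped, while each mouse was lower in its CD249+ cells by a similar step. Foxc1 fell by 0.55 on the log2 scale (SE 0.15, adjusted p = 0.0218). That call rests on the pairing, since without mouse as a block the log2 fold change was -0.56 with adjusted p = 0.304, and it was lost without mouse 2, 7 or 10 (adjusted p = 0.0506, 0.102 and 0.0749).

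Foxc2 (ENSMUSG00000046714.7) had 4.28, 9.88, 11.1 and 9.35 CPM in the CD249+ libraries of mice 2, 7, 8 and 10, against 4.52, 5.88, 9.09 and 8.61 CPM in their CD249- libraries. The fractions overlapped and 3 of 4 mice were higher in CD249+ cells. Lymphatic endothelium, where Foxc2 shapes valves, was sought with 12 genes, of which 7 fell, 2 rose and 3 did not pass (median log2 fold change -0.95). Over all genes 17.1% were called lower and 19.3% higher. Flt4, the receptor of the lymphatic growth factor VEGF-C, fell by 1.21 and the hyaluronan receptor gene Lyve1 by 1.83 on the log2 scale, while the integrin gene Itga9 rose by 1.42 (adjusted p = 1.93e-05, 3.24e-05 and 3.65e-05). Their summed level was 909 to 1393 CPM in CD249+ and 2032 to 2675 CPM in CD249- libraries, and their part in the Foxc values was not tested.

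Foxo1 and Foxo3 carry insulin and stress signals to genes of metabolism and the cell cycle. Foxo1 (ENSMUSG00000044167.6, chromosome 3, 52268336 to 52353221) was the steadiest of the 10 genes within a fraction. It had 151, 146, 134 and 142 CPM in the CD249+ libraries of mice 2, 7, 8 and 10, against 216, 211, 197 and 214 CPM in their CD249- libraries. No CD249+ library reached a CD249- library, and Foxo1 fell by 0.55 on the log2 scale (SE 0.07, adjusted p = 0.000299), a 1.47-fold lower mean. An antisense gene, Gm20402, overlaps its exons, and its reads could not be told from those of Foxo1 without strand. The part of endothelial RNA in the fall of Foxo1 was not tested.

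Foxo3 (ENSMUSG00000048756.11, chromosome 10, 42181841 to 42276755) had 16.3, 11.6, 13.4 and 13.4 CPM in the CD249+ libraries of mice 2, 7, 8 and 10, against 7.11, 9.67, 10.8 and 7.17 CPM in their CD249- libraries. The groups did not overlap, by a narrow margin, and Foxo3 rose by 0.67 on the log2 scale (SE 0.22, adjusted p = 0.0459). That call was lost when any of the 4 mice was left out (adjusted p = 0.0520 to 0.143) and with library totals not scaled by TMM (adjusted p = 0.0870). Foxo3 took 9.13% ± 1.02 of the summed Foxo level per kb in CD249+ and 4.33% ± 1.06 in CD249- cells (SD, n = 4 each), with Foxo4 and Foxo6 counted in the sum.

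Genes on either side of the Foxo proteins were taken as 2 lists, read against the 19.3% of all genes called higher and 17.1% called lower. Of 21 tested genes known as Foxo targets in other tissues 8 rose, 1 fell and 12 did not pass, with a median log2 fold change of 0.27 against -0.02 over all genes. Klf15, a metabolic transcription factor gene, had the smallest p of the list and rose, at 76.3 CPM in CD249+ and 9.90 CPM in CD249- cells (means, n = 4 each, edgeR adjusted p = 9.20e-06). Irs2, an adaptor of the insulin receptor, rose by 1.82, Cited2 by 1.43 and the repressor gene Bcl6 by 1.13, and the thioredoxin inhibitor gene Txnip fell by 0.51. Of 16 genes of the insulin, PI3-kinase and Akt pathway that governs Foxo proteins 5 rose, 3 fell and 8 did not pass (median 0.01). Calls in both directions, as in these lists, were also common over all genes. Akt2 rose by 1.12, the PI3-kinase gene Pik3cb fell by 1.01 and the kinase gene Sgk1 by 0.66, all at adjusted p under 0.05, and Irs2 is in both lists. Foxo proteins are controlled by where they sit in the cell, which RNA levels do not show.

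By a small margin over Foxf1 (log2 fold change -1.07, SE 0.07), and not in mouse 2, Foxp1 was the member that fell furthest. It encodes a repressor of lung epithelium, endothelium and blood cells. Foxp1 (ENSMUSG00000030067.17, chromosome 6, 98925338 to 99522721) had 331, 227, 235 and 201 CPM in the CD249+ libraries of mice 2, 7, 8 and 10, against 620.4, 527, 529 and 499 CPM in their CD249- libraries. Mouse 2 was highest in both fractions and the fractions did not overlap. Its mean was 2.19-fold lower in CD249+ cells (248 ± 56.8 CPM in CD249+ and 544 ± 52.9 CPM in CD249- cells, SD, n = 4 each, log2 fold change -1.15, SE 0.08, adjusted p = 2.16e-05). Foxp1 shares exon sequence with Gm20696, an overlapping gene on the same strand that held 5.92 CPM in CD249+ and 8.27 CPM in CD249- cells, so the split of reads between them is uncertain. All 24 endothelial genes were lower in CD249+ cells too, and the part of endothelial RNA in the fall of Foxp1 was not tested.

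Foxp2 (ENSMUSG00000029563.16), a partner of Foxp1 in mouse lung development, had 6.22, 17.4, 19.4 and 14.1 CPM in the CD249+ libraries of mice 2, 7, 8 and 10, against 3.79, 7.64, 14.4 and 9.03 CPM in their CD249- libraries. Mouse 2 was lowest in both fractions. The ranges overlapped while each mouse was higher in CD249+ cells. Apart from mouse 2, the CD249+ library of mouse 10 (14.1 CPM) lay below the CD249- library of mouse 8 (14.4 CPM). Foxp2 rose by 0.74 on the log2 scale (SE 0.20, adjusted p = 0.0184). The call was lost without mouse as a block (0.71, adjusted p = 0.243) and without mouse 7 (0.59, adjusted p = 0.0816).

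Foxp4, the remaining Foxp gene of lung, moved with Foxp2. It had 11.1, 16.1, 18.1 and 23.8 CPM in the CD249+ libraries of mice 2, 7, 8 and 10, against 3.79, 5.78, 4.67 and 6.36 CPM in their CD249- libraries (log2 fold change 1.72, SE 0.19, adjusted p = 0.000185). Per kb, Foxp1 took 79.6% ± 7.63 of the summed Foxp level in CD249+ and 95.7% ± 1.42 in CD249- cells, and Foxp4 took 16.1% ± 6.25 in CD249+ and 2.57% ± 0.740 in CD249- cells (SD, n = 4 each). Corepressors that Foxp proteins bind were measured as a list. Of 10 such genes 0 rose, 2 fell and 8 did not pass at a median log2 fold change of -0.05, with 17.1% of all genes called lower. The count of 2 is near that background, and the 2 were Gatad2a, of the NuRD complex, at -0.73 and Ctbp2 at -0.41 (edgeR adjusted p = 0.000199 and 0.0242).

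Foxd1, which marks stromal progenitors of kidney and of lung pericytes in mice, had the lowest CPM of the 10 in both fractions. Foxd1 (ENSMUSG00000078302.4, chromosome 13, 98354242 to 98359305) had 0.626, 8.57, 4.03 and 4.86 CPM in the CD249+ libraries of mice 2, 7, 8 and 10, against 0.299, 1.30, 0.626 and 0.630 CPM in their CD249- libraries. The CD249+ library of mouse 2 lay within the CD249- range, and the other CD249+ libraries lay above it. Foxd1 rose by 2.41 on the log2 scale (SE 0.54, adjusted p = 0.00865), on 19 to 242 counts in CD249+ and 9 to 37 counts in CD249- libraries. Without mouse 7 the call was lost (2.28, adjusted p = 0.0617). Of 19 pericyte genes 16 rose, 1 fell and 2 were not past the threshold, against 19.3% of all genes called higher and 17.1% lower. These pericyte genes had a median log2 fold change of 2.30 and a summed level of 1906 to 2484 CPM in CD249+ and 785 to 1071 CPM in CD249- libraries. Their part in the Foxd1 value was not tested.

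Members of one subfamily were also set against each other as ratios within a library, with 0.5 CPM added to each gene. The pairs were compared with the direction of their members known. The log2 ratio of Foxf2 over Foxf1 was -2.36 ± 0.46 in CD249+ and -7.82 ± 0.61 in CD249- cells (SD, n = 4 each), a difference of 5.46. For Foxo3 over Foxo1 it was -3.35 ± 0.18 in CD249+ and -4.54 ± 0.34 in CD249- cells, a difference of 1.19. In both pairs the members had non-overlapping fractions in opposite directions, which fixes the order of the ratios, so these differences are a description with no test. For Foxc2 over Foxc1 it was -0.39 ± 0.27 in CD249+ and -1.17 ± 0.61 in CD249- cells, a difference of 0.78. That ratio was higher in CD249+ cells in 4 of 4 mice, with no overlap between the fractions (two-sided exact permutation over the 8 libraries, p = 0.0286, the smallest it can give). Adjustment of this permutation p over all 4 pairs gave 0.0381. That value counts the 2 pairs whose order was fixed, so no call is made from it. Foxp2 over Foxp1 was -4.16 ± 0.98 in CD249+ and -6.02 ± 0.85 in CD249- cells, a difference of 1.85 that did not pass (exact permutation p = 0.0571, adjusted 0.0571). Its direction within each of the 4 mice was fixed, since Foxp2 rose and Foxp1 fell in all of them. In an exact permutation test by sign flips within mouse, 16 arrangements allow no p below 0.125. Foxp2 over Foxp1 had to give that value, and Foxc2 over Foxc1 gave it too. For Foxc2 over Foxc1 the direction was fixed in 3 of 4 mice, where Foxc2 rose and Foxc1 fell.

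**Figure D4:**
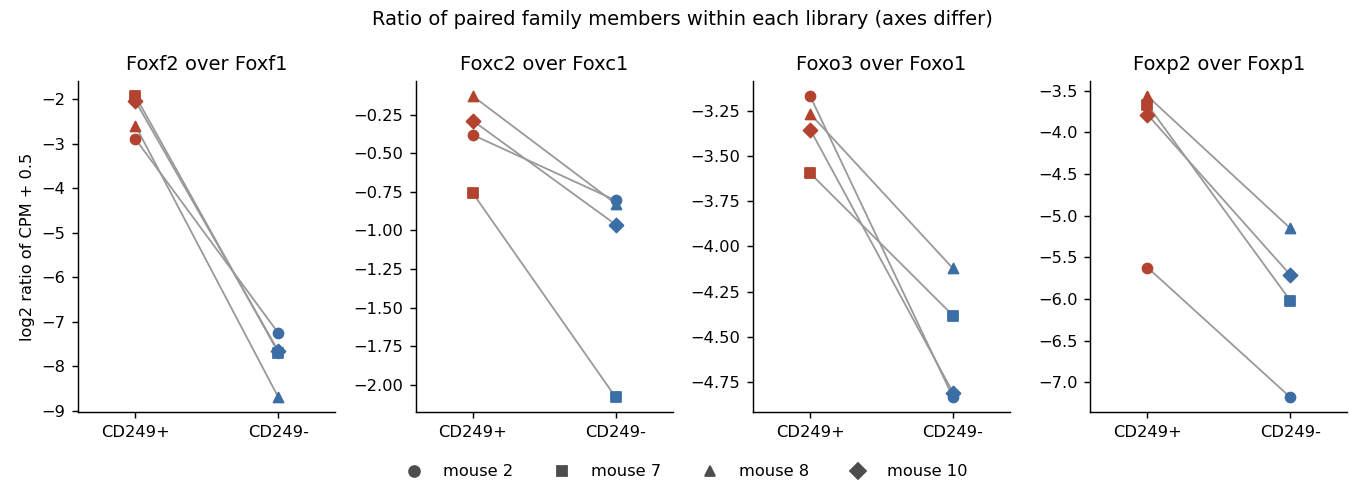
Log2 ratio of the CPM of paired subfamily members, with 0.5 CPM added to each, in CD249+ (left, red) and CD249- (right, blue) libraries; lines join the fractions of a mouse and the axes differ between panels. All 16 lines run higher in CD249+ cells. In the Foxf, Foxo and Foxp panels this was fixed, since the 2 genes moved in opposite directions in every mouse. In the Foxc panel it was fixed in 3 of 4 mice. In the Foxp2 over Foxp1 panel the CD249+ library of mouse 2 lies at -5.62, among the CD249- libraries.

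Levels per kilobase of exon ordered the genes differently in the fractions. Length was that of all annotated exons of a gene merged, from 2363 bases for Foxf2 to 16346 for Foxp2. A gene whose RNA lacks some of those exons reads low on this scale, which was not tested. In CD249+ cells the order was Foxf1, Foxf2, Foxp1, Foxo1, Foxl1, Foxc2, Foxc1, Foxo3, Foxd1 and Foxp2. The libraries of Foxp1 and Foxo1 overlapped in that order, at 18.1 ± 4.13 and 16.5 ± 0.828 CPM per kb in CD249+ cells (SD, n = 4 each), as did those of each neighbouring pair from Foxl1 down. In CD249- cells the order was Foxf1, Foxp1, Foxo1, Foxc1, Foxc2, Foxf2, Foxo3, Foxl1, Foxp2 and Foxd1, and each neighbouring pair from Foxc1 down overlapped. Foxf2 was thus second in CD249+ cells and sixth in CD249- cells.

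Mice often kept their place in both fractions. The same mouse was lowest in both fractions for 8 of the 10 genes and highest in both for 7 of 10, against 37.3% and 38.0% of all genes tested. Mouse 2 was lowest in both fractions for Foxc1, Foxc2, Foxp2 and Foxd1 and highest in both for Foxf1, Foxo1 and Foxp1. Its libraries also held the highest endothelial sums of their fraction, 13307 CPM in CD249+ and 29386 CPM in CD249- cells, and the part of this in the forkhead values was not tested.

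Among the other forkhead genes 34 were in the table and 16 passed the low-count filter, of which 4 rose, 1 fell and 11 did not pass (median log2 fold change 0.01), with 36.5% of all genes called in either direction. The count of 5 called genes is near that background. Besides Foxp4 and Foxq1, Foxs1, a forkhead gene of pericytes in mice, rose, at 13.2 ± 4.32 CPM in CD249+ and 4.81 ± 2.00 CPM in CD249- cells (SD, n = 4 each, edgeR adjusted p = 0.00128). Foxk1, a widely expressed metabolic regulator, fell by 0.71 (adjusted p = 0.0287). Foxa1, an epithelial factor, rose by 3.39 (SE 1.12, adjusted p = 0.0452), at 0.922, 0.212, 0.920 and 7.74 CPM in the CD249+ libraries of mice 2, 7, 8 and 10 and 0, 0.0700, 0 and 1.98 CPM in CD249- cells. Mouse 10 was highest in both fractions, as it was in the summed level of 15 epithelial genes, which was 639 to 10630.0 CPM in CD249+ and 388 to 1084 CPM in CD249- libraries. Their part in the Foxa1 value was not tested.

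**Figure D5:**
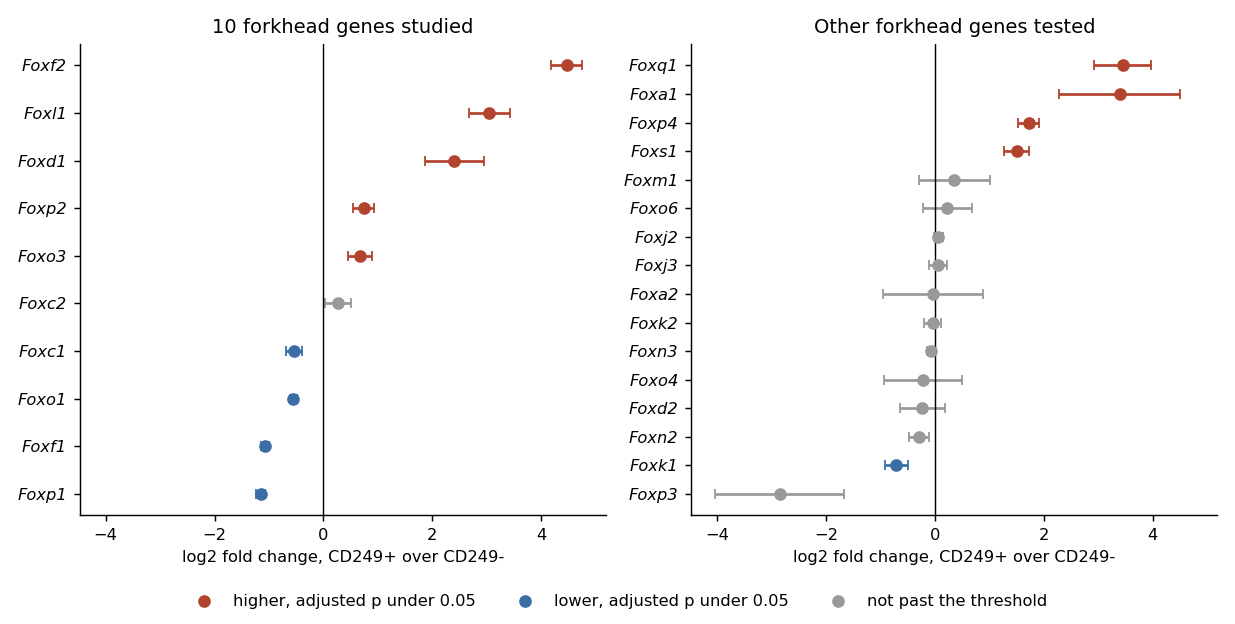
Log2 fold change of CD249+ over CD249- for the 10 forkhead genes studied (left) and the 16 other forkhead genes that passed the low-count filter (right). Bars are standard errors derived from the edgeR test. Red is higher and blue lower at an adjusted p under 0.05, and grey is not past it. Foxf2 lies highest at 4.47, Foxp1 and Foxf1 lie lowest among the 10 at -1.15 and -1.07, and most other forkhead genes lie near 0.

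Hedgehog signalling acts on Foxf1, Foxf2 and Foxl1 in mouse mesenchyme. Of 12 tested hedgehog genes 9 rose, 1 fell and 2 were not past the threshold, against 19.3% of all genes called higher and 17.1% lower. The list had a median log2 fold change of 1.21 against -0.02 over all genes. Hhip, a hedgehog-binding antagonist and target, rose by 4.52, the transcription factor gene Gli2 by 3.43, the coreceptor gene Boc by 1.67 and the transducer gene Smo by 1.06 (adjusted p = 9.84e-07, 2.19e-05, 6.97e-05 and 3.96e-05). Dhh, a hedgehog ligand gene, fell by 1.25. Hhip is also in the smooth muscle and myofibroblast list. Of 6 genes of endothelial receptors and ligands linked to Foxf1 in mouse lung vessels, Kdr, Flt1, Tek, Pdgfb, Pecam1 and S1pr1, all 6 fell (17.1% of all genes did), with a median log2 fold change of -1.41. Flt1, a VEGF receptor gene, averaged 142 ± 43.5 CPM in CD249+ and 399 ± 52.8 CPM in CD249- cells (SD, n = 4 each, log2 fold change -1.53), and Tek, the angiopoietin receptor gene, had a log2 fold change of -1.25. Kdr, Flt1, Tek and Pecam1, 4 of the 6, are also among the 24 endothelial genes.

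Over the 8 libraries genes among the 5 most like Foxf1 by Pearson correlation of log2 CPM were Pcdh1, Scn7a, Sema3g and Dusp7, with r = 0.996, 0.994, 0.993 and 0.993. Those most like Foxf2 were Slc38a5, Egflam, Efcc1, Kcnk3 and Tbx2, with r = 0.992, 0.991, 0.991, 0.991 and 0.991. Such values are common where 2 fractions differ, and of 10099 genes compared 977 reached r of 0.9 with Foxf1 and 941 with Foxf2. Pcdh1, Scn7a, Sema3g and Dusp7 had log2 fold changes of -1.39 to -0.60, and the 5 genes most like Foxf2 had 1.57 to 4.72. Kcnk3 is also in the pericyte list.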

How the data were processed

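RNA of 8 libraries was reverse transcribed with oligo(dT) from 10 ng of total RNA, amplified with SMART-Seq V4, made into Nextera XT libraries and sequenced as 75-base single reads, per the labels' protocols. The authors deposited estimated counts per gene (expected counts), of which 12.0% are not whole. Tools listed, with no roles, in the submitters' processing notes are RSEM 1.2.28, STAR 2.6.1, R 3.6.3, DESeq2 1.26.0 and bcl2fastq 2.20. The notes list the human build GRCh38 while the table carries mouse identifiers, and the mouse build is not given in the sources. The kit does not mark strand, amplified reads are not independent molecules, and 92 spike-in entries, all at 0, were left out.

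Counts were rounded, genes kept by filterByExpr (14524 of 18552 with any count), scaled by TMM and tested with edgeR 4.0.16 in R 4.3.3 (quasi-likelihood, two-sided, mouse as a block, Benjamini-Hochberg adjustment over all genes, adjusted p under 0.05). Each SE from edgeR is the absolute log2 fold change divided by the square root of the F statistic of that test. The fit was also run on counts simulated from its own model, with far fewer genes changed than were called here. That run checks the code and cannot show that the model suits these data. Positions and exon lengths came from GENCODE M21 (GRCm38), which held 99.0% of the identifiers when versions were ignored and 68.0% with the same version, and upstream sequences from RefSeq. Both fractions came from the same lung per the labels, and deviations from the fraction mean correlated at 0.112 to 0.260 between the 2 libraries of a mouse and at -0.195 to 0.0457 across mice, as correlations over genes, whose values are not independent. A library stands for 1 sorted fraction of 1 mouse, and library totals set the precision, with 9 to 49112 counts per forkhead gene and library. Alternatives were a fit with no block, DESeq2 1.42.0, limma-voom (limma 3.58.1), other scaling and filters, each mouse left out, and pairs of mice. The members, gene lists, tests and alternatives were chosen with earlier results of these data known. Genes named are the 10 members, called other forkhead genes of at least 1 CPM in either fraction, up to 4 genes of smallest p per list, nearest neighbours, and the 5 genes most like Foxf1 or Foxf2 (at least 10 CPM in either fraction); Txnip, Dhh and Enpep were named after their values were seen. Of the genes most like Foxf1, 1 is not reported here. Further lists gave 17 of 17 smooth muscle and myofibroblast genes higher, 7 higher and 4 lower of 18 adventitial, 1 higher and 7 lower of 12 mesothelial, 7 higher and 1 lower of 15 epithelial and 11 lower of 20 leukocyte genes. These counts stand against 19.3% higher and 17.1% lower over all genes.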

Additional observations from a re-analysis of the deposited data

Results flagged for a closer look

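In the CD249+ fraction the log2 ratio of Foxp2 over Foxp1 of mouse 2, at -5.62, lay far from those of mice 7, 8 and 10, at -3.67, -3.57 and -3.79. In the CD249- fraction the log2 ratio of Foxc2 over Foxc1 of mouse 7, at -2.08, lay far from those of mice 2, 8 and 10, at -0.81, -0.83 and -0.96. In both cases 1 of 4 libraries stood apart by Dixon's 95% limit, which chance passes in about 1 of 20 groups, and 28 groups were examined.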

How the results depend on the processing

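Foxf1, Foxf2, Foxl1, Foxo1 and Foxp1 kept their direction and stayed past the threshold under all 13 alternative settings, with log2 fold changes of -1.17 to -1.02, 3.97 to 5.09, 2.41 to 3.73, -0.65 to -0.52 and -1.25 to -1.10. No direction reversed for any of the 10 genes. The call was lost in 18 of 130 values, all of 4 genes. Of the 13 settings, Foxc1 lost it in 6, Foxo3 in 6, Foxp2 in 4 and Foxd1 in 2. Foxc2, counted in the 130, had no call to lose. Without mouse as a block, 2455 genes were higher and 2013 lower, against 2809 and 2489 with the pairing, and 4 forkhead genes were called higher and 3 lower. With library totals not scaled by TMM, 2433 were higher and 3158 lower, at a median log2 fold change of -0.12 over all genes against -0.02. Leaving out each mouse in turn gave 2276 to 2579 genes higher and 1876 to 2133 lower, with 2 to 4 forkhead genes higher and 3 to 4 lower, the 2 being Foxf2 and Foxl1 without mouse 7. In mice 2 and 10 alone 1786 genes were higher and 1328 lower, and 3 forkhead genes were called higher, as were 3 in mice 7 and 8 alone, where haemoglobin genes summed to 129 to 502 CPM against 12.1 to 26.8 CPM in mice 2 and 10. Within-library differences with 1 mouse left out, where the exact permutation test allows no p below 0.1, ran from 5.25 to 5.83 for Foxf2 over Foxf1, 0.60 to 0.90 for Foxc2 over Foxc1, 1.03 to 1.32 for Foxo3 over Foxo1, 1.69 to 1.95 for Foxp2 over Foxp1 and 0.39 to 0.52 for Foxf1 relative to endothelial genes. With Pecam1, Cdh5 and Kdr alone that last value was 0.36. Foxd1, at 9 to 37 counts per CD249- library, rests on the fewest counts of the 10 forkhead genes.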
